A study of Mus musculus with 8 samples.

Results

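The genes that bring iron into cells, store it and send it out again were examined in immature myeloid cells (IMCs), as 10 genes chosen by name. These were Tfrc, Slc40a1, Fth1, Ftl1, Hmox1, Slc11a1, Slc11a2, Ireb2, Aco1 and Hfe, and each was found as 1 entry among the 24062 genes of the count table. All 10 passed the filter on low counts, which kept 13197 genes. The study asked what deletion of PARP1 or PARP2, enzymes that attach ADP-ribose to proteins, does to the RNA of these cells. Bone marrow cells of C57BL/6 mice aged 2 months were cultured for 3 days with 40 ng/mL of M-CSF, the growth factor of macrophages, and 4 µg of total RNA entered each library.

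There were 4 groups of 2 libraries, which the series' design text calls biological duplicates. The PARP1 WT group carried the genotype PARP1 flox/flox, and the PARP1CKO group carried PARP1 flox/flox+lysozyme-Cre. The PARP2 WT and PARP2CKO groups carried PARP2 flox/flox and PARP2 flox/flox+lysozyme-Cre. All 8 libraries therefore came from floxed mice, and each WT group lacked Cre. Lysozyme-Cre acts in the myeloid lineage, so cells of other kinds in the culture keep the gene, and no Cre control without a floxed gene was among the samples. Whether a library came from 1 mouse or several is not given in the sources used here, so the p-values measure the spread between these libraries.

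The total count per library ran from 37852450 to 61845125. Levels are given as CPM, the count of a gene scaled to a fixed library size, after TMM scaling, which corrects for differences in the make-up of the libraries. The targeted genes followed the labels. Parp1 was at 202 and 211 CPM in PARP1 WT and at 63.2 and 59.1 CPM in PARP1CKO, and Parp2 was at 48.2 and 48.3 CPM in PARP2 WT against 25.7 and 25.6 CPM in PARP2CKO. In the other line, Parp1 lay between 155 and 264 CPM and Parp2 between 37.0 and 40.8 CPM. Itgam, which encodes CD11b, lay between 881 and 1035 CPM, and the macrophage markers Csf1r and Adgre1 lay between 1134 and 1273 CPM and between 495 and 630 CPM. Ly6g is not listed under that symbol, and Ly6c2 lay between 53.9 and 72.2 CPM. Of 5 sex-linked genes, Xist had 0 to 3 counts per library, and Ddx3y, Kdm5d, Eif2s3y and Uty of the Y chromosome were detected in all 8. PARP1CKO replicate 2 stood apart in Eif2s3y, at 32.7 CPM against 70.8 to 82.8 CPM in the other 7 libraries, and was also lowest in Ddx3y (67.3 CPM against 80.6 to 95.8 CPM). In whole cultures, fewer cells of a type and less RNA per cell cannot be told apart.

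Macrophages are the iron recyclers of the body. They take iron from transferrin through the transferrin receptor and from engulfed red cells by breaking down heme, keep it inside ferritin, and release it through ferroportin. When iron is scarce, the iron regulatory proteins bind short stem-loops, the iron-responsive elements. Binding in a 5′ UTR blocks translation, as in ferritin, and binding in the 3′ UTR of the transferrin receptor mRNA protects it from decay.

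The stem-loops are shown because those of Tfrc are known to act on mRNA amount, the quantity counted here, and those of ferritin and ferroportin on translation. GENCODE M21 transcripts on GRCm38 (mm10) were searched on the transcript strand for C, 5 bases, the loop CAGTGN, and 5 bases that pair with the first 5, with G:T pairs allowed. Of the 10 genes, 4 held the element (40%), against 161 of 21877 genes with a protein-coding transcript (0.736%). The 10 were picked as iron genes and include known carriers of the element, so the higher share follows from that choice. In the lines that follow each run is 29 bases, 5′ to 3′, and the capitals mark the loop.
Tfrc 3′ UTR, chr16:32631219-32631247, plus strand: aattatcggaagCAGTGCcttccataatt
Tfrc 3′ UTR, chr16:32631598-32631626, plus strand: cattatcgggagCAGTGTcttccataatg
Tfrc 3′ UTR, chr16:32631663-32631691, plus strand: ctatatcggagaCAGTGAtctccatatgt
Tfrc 3′ UTR, chr16:32631710-32631738, plus strand: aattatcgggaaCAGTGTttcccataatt
Slc40a1 5′ UTR, chr1:45925465-45925493, minus strand: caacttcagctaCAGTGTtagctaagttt
Fth1 5′ UTR, chr19:9982732-9982760, plus strand: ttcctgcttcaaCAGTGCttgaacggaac
Ftl1 5′ UTR, chr7:45459779-45459807, minus strand: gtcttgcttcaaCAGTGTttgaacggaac
The ferritin elements of Fth1 and Ftl1 were identical over the 8 bases before the loop and the 11 after it, and the 4 matches in Tfrc lay close together. No match in the other 6 genes says only that these letters are not in their annotated UTRs, and Slc11a2 is known for a 3′ UTR element with an atypical stem. A match is a description of sequence and was not tested for protein binding.

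The 10 genes spanned a wide range of abundance. By count, Ftl1 was the most abundant of all genes in each of the 8 libraries, and Fth1 was the fifth. Together the ferritin genes took between 2.81% and 3.39% of all counts. Levels between genes were compared per length of the principal transcript, as RPKM (CPM divided by transcript length in kilobases). On that scale the mean over 8 libraries was 18787 for Ftl1, 8292 for Fth1, 1038 for Hmox1, 280 for Slc11a1, 102 for Tfrc and 101 for Slc40a1. It was 25.8 for Aco1, 19.9 for Slc11a2, 15.5 for Ireb2 and 6.46 for Hfe. Tfrc (77.5 to 137 RPKM) and Slc40a1 (74.9 to 124 RPKM) could not be ordered, while the ranges of all other neighbours in this order did not overlap. With the length of all annotated exons instead, Slc40a1 averaged 37.7 RPKM and Tfrc 80.9, and Slc11a2 (9.48) and Ireb2 (9.45) were level.

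**Figure D1:**
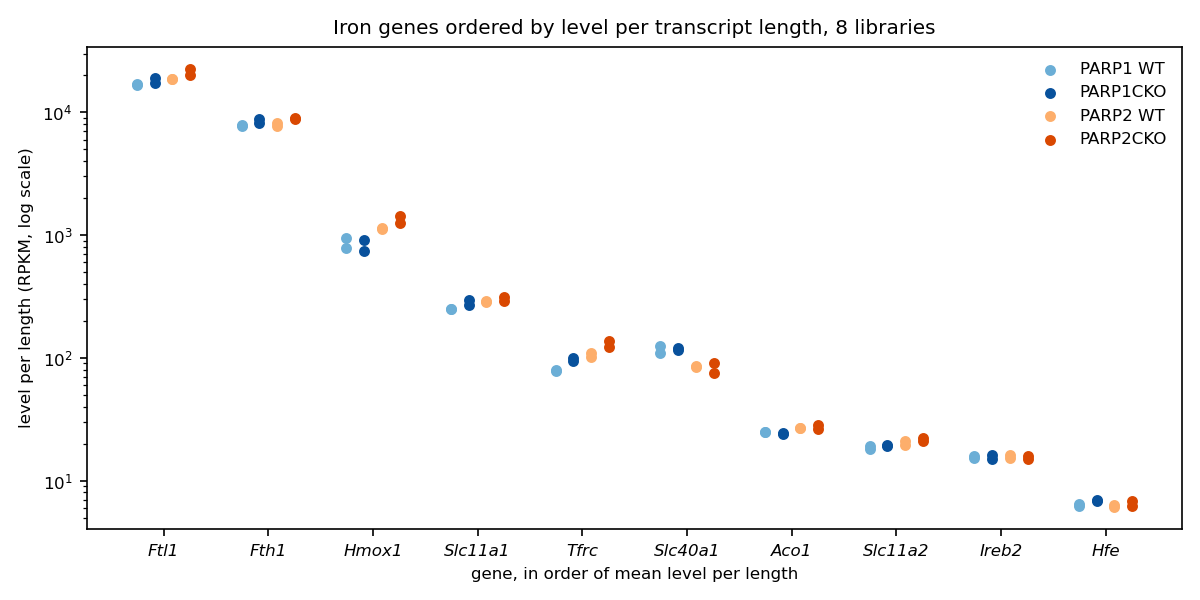
Level per transcript length (RPKM, log axis) of the 10 iron genes in the 8 libraries, in order of the mean over libraries; each point is a library, coloured by group. Ftl1 and Fth1 stand highest and Hfe lowest, and Tfrc and Slc40a1 overlap, with Slc40a1 higher in the PARP1 line and Tfrc higher in the PARP2 line. The order of Tfrc and Slc40a1 depends on the length used. With the length of all annotated exons, Tfrc averaged 80.9 RPKM and Slc40a1 37.7.

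Across libraries, Hmox1 varied most, with its highest level 1.90 times its lowest. Tfrc followed at 1.77 times and Slc40a1 at 1.65 times. Ireb2 varied least, at 1.08 times.

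**Figure D2:**
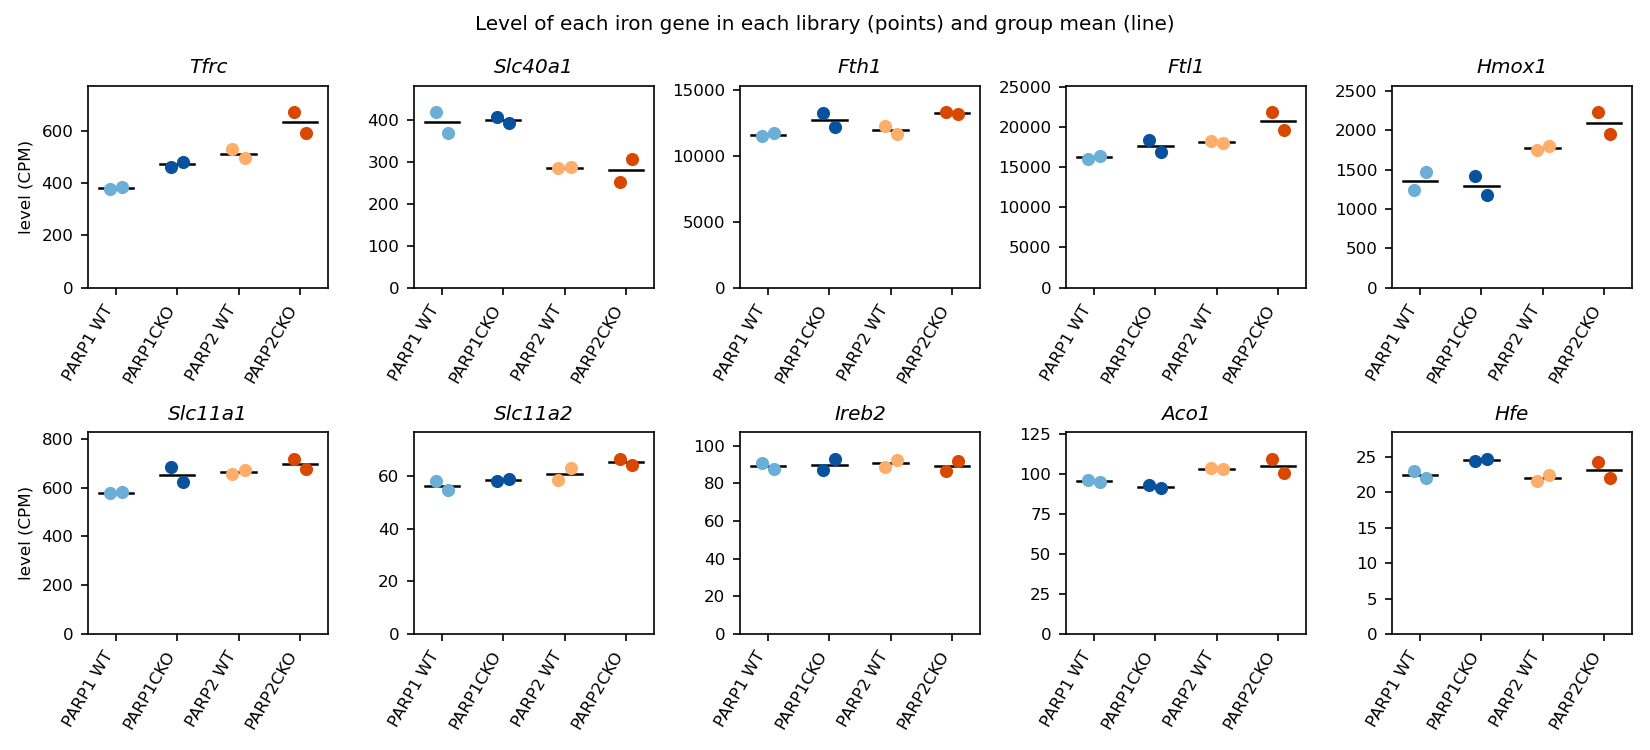
Level (CPM, axes from 0) of each iron gene in each library; points are libraries and lines are group means, n = 2 per group. Tfrc is higher in each CKO group than in its WT group and higher in the PARP2 line, where Slc40a1 is lower.

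Iron uptake was described by Tfrc, Slc11a1 and Slc11a2. Tfrc (ENSMUSG00000022797.16, chr16:32608920-32632794) encodes the transferrin receptor, the main entry route of transferrin-bound iron. Its level was 379 and 386 CPM in PARP1 WT and 462 and 483 CPM in PARP1CKO. In the PARP2 line it was 530 and 498 CPM in PARP2 WT compared with 672 and 595 CPM in PARP2CKO. Both CKO libraries of each line lay above both WT libraries of that line, and all libraries of the PARP2 line lay above all of the PARP1 line. The log2 fold change was 0.31 ± 0.06 (SE) in PARP1CKO, or 23.6% higher with a 95% interval of 11.9% to 36.4%, and 0.27 without PARP1CKO replicate 2. In PARP2CKO it was 0.30 ± 0.06, or 23.2% higher with an interval of 11.7% to 36.0%. The PARP2CKO value ran from 0.21 to 0.39 when 1 library was left out, lowest without PARP2CKO replicate 1.

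Neither Tfrc difference passed edgeR's quasi-likelihood test after Benjamini-Hochberg adjustment over all 13197 genes. The adjusted p was 0.172 in PARP1CKO (unadjusted 0.000939) and 0.485 in PARP2CKO (unadjusted 0.000992). The call depended on the method. Tfrc passed in both comparisons with DESeq2 (adjusted p of 0.000584 and 0.00153), with edgeR's likelihood-ratio test (0.00544 and 0.0144), and with the quasi-likelihood test without a filter on low counts (0.0191 and 0.0456). DESeq2 called 0.754% and 0.205% of the genes it tested in these comparisons, the likelihood-ratio test 1.11% and 0.296%, and the unfiltered test 0.576% and 0.148%. On simulated tables of PARP1CKO against PARP1 WT, false calls exceeded the nominal level for the quasi-likelihood test and DESeq2. They did so by the widest margin for the likelihood-ratio test. The other comparisons and the unfiltered test were not simulated. Averaged over both deletions, the Tfrc log2 fold change was 0.30 ± 0.04 with an adjusted p of 0.0668 in the quasi-likelihood test, and 0.0369 without PARP2CKO replicate 2. For that average, DESeq2 (adjusted p = 1.27e-08), the likelihood-ratio test (2.2e-06) and the unfiltered test (0.000658) called Tfrc. In the quasi-likelihood test without any 1 of the other 7 libraries it was not called, with an adjusted p of up to 0.239. The difference between the deletion effects was -0.00 with a 95% interval of -0.20 to 0.20 and an adjusted p of 0.995.

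Tfrc is also abundant in red cell precursors and dividing cells, so marker lists for both were summed in each library. Of 12 erythroid markers, 11 were in the table, and their sum was 11.4 to 13.2 CPM in PARP1 WT, 13.7 to 18.4 in PARP1CKO, 7.50 to 10.5 in PARP2 WT and 8.13 to 8.37 in PARP2CKO. Gata1 (3.73 to 6.07 CPM), Hba-a1 and Hba-a2 (0.570 to 3.83 CPM each) and Epor (1.21 to 2.00 CPM) were the most abundant of them. Hbb-bs lay between 0.393 and 1.73 CPM, Hbb-bt between 0.0414 and 0.336 CPM and Slc4a1 between 0 and 0.619 CPM. The erythroid sum was higher in PARP1CKO than in PARP1 WT without overlap, as Tfrc was, with 5 of 7 tested markers above 0 and a median log2 fold change of 0.36. It was lower in both groups of the PARP2 line, where Tfrc was higher. Hba-a1 and Hba-a2 held equal counts in all 8 libraries, and both entered the sum and the 7 tested markers. With the pair entered once, an alternative chosen after seeing the data, the sum was 9.41 to 11.4 CPM in PARP1 WT, 10.6 to 14.6 in PARP1CKO, 6.80 to 9.74 in PARP2 WT and 7.56 to 7.72 in PARP2CKO. PARP1CKO then overlapped PARP1 WT, with 4 of 6 tested markers above 0 and a median log2 fold change of 0.29, and the WT groups also overlapped. In PARP2CKO 2 of 6 were then above 0, with a median of -0.21. The sum of 10 cycling markers was 2338 to 2438 CPM in PARP1 WT, 2258 to 2361 in PARP1CKO, 2258 to 2263 in PARP2 WT and 2247 to 2272 in PARP2CKO. The sum of 12 macrophage markers was 4512 to 4788, 4685 to 4820, 4906 to 5204 and 5186 to 5375 CPM in the same order of groups. The neutrophil and precursor markers, 11 in the table, summed to 3048 to 3278 CPM in PARP1 WT and 2701 to 3398 in PARP1CKO, which overlapped. They summed to 3300 to 3560 CPM in PARP2 WT and were lower without overlap in PARP2CKO, at 2963 to 3267 CPM. The 5 monocyte markers summed to 251 to 286, 211 to 257, 320 to 332 and 299 to 314 CPM in the same order of groups, so that PARP2CKO again lay below PARP2 WT. Of the neutrophil and precursor markers, 4 of 11 were above 0 in PARP1CKO (median log2 fold change -0.06) and 1 of 11 in PARP2CKO (-0.16). Of the monocyte markers, 0 of 5 were above 0 in PARP1CKO (-0.18) and 1 of 5 in PARP2CKO (-0.07). The quasi-likelihood test called 0 of them in either comparison. The 6 B cell markers summed to 30.8 to 42.8 CPM in PARP1CKO and 8.05 to 10.9 in PARP2CKO, which overlapped the WT libraries of each line. Of these, 6 of 6 were above 0 in PARP1CKO (median 0.27) and 2 of 6 in PARP2CKO (-0.15), and 0 were called. The 6 T and NK cell markers summed to 2.10 to 2.82, 2.08 to 3.10, 2.47 to 3.19 and 2.13 to 2.30 CPM in the order PARP1 WT, PARP1CKO, PARP2 WT and PARP2CKO, so that PARP2CKO lay below PARP2 WT without overlap. Only Cd8a and Nkg7 of these passed the filter, and 0 were called. The 5 sex-linked genes summed to 223 to 235 CPM in PARP1 WT and to 156 to 216 CPM in PARP1CKO without overlap, with 1 of 4 tested above 0 (median -0.19) and 0 called. Their sums overlapped in the PARP2 line.

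The markers of the immature myeloid label in the table were Itgam, Ly6c1, Ly6c2, Ptprc and Lyz2. Their sum was 7109 to 7814 CPM in PARP1 WT, 4810 to 5694 in PARP1CKO, 11140 to 12215 in PARP2 WT and 7143 to 8198 in PARP2CKO, lower in each CKO group without overlap. In each comparison 1 of 5 was above 0 and 0 were called, with medians of -0.09 and -0.24. Lyz2, the lysozyme gene that carries Cre in the widely used lysozyme-Cre allele, made up most of the sum. The sum therefore mainly follows Lyz2 and does not measure how many immature myeloid cells were present. Over the 8 libraries, Itgam lay between 881 and 1035 CPM, Ptprc between 359 and 427, Ly6c2 between 53.9 and 72.2 and Ly6c1 between 0.605 and 1.02. By flow cytometry, the paper reports a higher percentage of CD11b+Gr1+ cells in PARP2CKO cultures. The mean level of Lyz2 was 6050 CPM in PARP1 WT, 3914 in PARP1CKO, 10264 in PARP2 WT and 6244 in PARP2CKO. Its log2 fold change was -0.63 ± 0.12 in PARP1CKO and -0.72 ± 0.12 in PARP2CKO, with adjusted p of 0.135 and 0.187 by edgeR's quasi-likelihood test, and Lyz2 was called for the mean of both effects (-0.67, adjusted p = 0.0350).

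The part of these lists in the CKO differences of Tfrc and of the other iron genes was not tested.

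Slc11a1 (ENSMUSG00000026177.11, chr1:74375195-74386062) encodes NRAMP1, a metal transporter of the phagosome membrane in macrophages. Its level was 577 and 580 CPM in PARP1 WT and 684 and 623 CPM in PARP1CKO. In the PARP2 line it was 657 and 673 CPM in PARP2 WT compared with 719 and 678 CPM in PARP2CKO. The CKO libraries lay above the WT libraries in both lines, by a narrow margin in the PARP2 line. The log2 fold change was 0.18 ± 0.05 in PARP1CKO (adjusted p = 0.300, unadjusted 0.0102) and 0.07 ± 0.05 in PARP2CKO (adjusted p = 0.954), by edgeR's quasi-likelihood test. The Slc11a1 value in PARP1CKO was 0.11 without PARP1CKO replicate 1, and that in PARP2CKO was 0.027 without PARP2CKO replicate 1 and 0.11 without PARP2CKO replicate 2.

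Slc11a2 (ENSMUSG00000023030.16, chr15:100387898-100425072) encodes DMT1, which carries ferrous iron out of endosomes. It was at 58.1 and 54.6 CPM (PARP1 WT), 58.3 and 59.0 CPM (PARP1CKO), 58.4 and 63.1 CPM (PARP2 WT) and 66.6 and 64.1 CPM (PARP2CKO). The CKO libraries lay above the WT libraries in both lines, and the log2 fold changes were 0.06 ± 0.05 and 0.11 ± 0.05. Neither passed the test. The PARP1CKO value was 0.011 without PARP1 WT replicate 2 and 0.10 without PARP1 WT replicate 1. The corresponding Slc11a2 value in PARP2CKO was 0.052 without PARP2 WT replicate 1 and 0.16 without PARP2 WT replicate 2. Slc11a2 overlaps Gm5475 on the antisense strand over 6.33% of its exon bases, but Gm5475 had no counts in any library.

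Iron storage was described by the ferritin heavy and light chains, which build the shell that holds iron. Fth1 (ENSMUSG00000024661.7, chr19:9980598-9985098), whose product oxidizes the iron, was at 11494 and 11718 CPM in PARP1 WT and at 13230 and 12199 CPM in PARP1CKO. It was at 12291 and 11659 CPM in PARP2 WT compared with 13306 and 13204 CPM in PARP2CKO. The CKO libraries lay above the WT libraries in both lines, and the WT groups of the lines overlapped. As log2 fold changes, the differences were 0.13 ± 0.06 in PARP1CKO (adjusted p = 0.448) and 0.15 ± 0.06 in PARP2CKO (adjusted p = 0.954, unadjusted 0.0360), by edgeR's quasi-likelihood test. Without PARP1CKO replicate 1 the Fth1 value in PARP1CKO was 0.072.

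Ftl1 (ENSMUSG00000050708.16, chr7:45457944-45459884) encodes the light chain, which helps the iron core form. Its level was 16024 and 16452 CPM in PARP1 WT and 18392 and 16880 CPM in PARP1CKO. In the PARP2 line it was 18227 and 18037 CPM in PARP2 WT compared with 21842 and 19636 CPM in PARP2CKO. PARP2CKO replicate 1 stood highest of the 8 libraries, and the CKO libraries lay above the WT libraries in both lines. Its log2 fold change was 0.12 ± 0.07 in PARP1CKO (adjusted p = 0.538) and 0.19 ± 0.07 in PARP2CKO (adjusted p = 0.888, unadjusted 0.0214), by edgeR's quasi-likelihood test. The Ftl1 value in PARP1CKO was 0.056 without PARP1CKO replicate 1 and 0.18 without PARP1CKO replicate 2, and that in PARP2CKO was 0.12 without PARP2CKO replicate 1. Averaged over both deletions, DESeq2 called Fth1 (0.14, adjusted p = 0.0462) and Ftl1 (0.16, adjusted p = 0.0482), while the quasi-likelihood test gave adjusted p of 0.424 and 0.426. Ftl1 counts are less certain than the others, since 51.3% of its stretches of 75 bases, the read length, also occur in 8 other annotated genes that the count table does not list. Ftl1 also overlaps Gm10252 on the antisense strand and Gm22133 on the same strand, together over 34.6% of its exon bases, and neither is in the count table. How reads with several matches were counted, and whether strand was used, is not given in the sources used here. The ratio of Fth1 to Ftl1 counts was 0.712 to 0.723 in the 4 libraries of the PARP1 line and 0.609 to 0.674 in the 4 of the PARP2 line.

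Iron export was described by Slc40a1 (ENSMUSG00000025993.10, chr1:45908068-45926523), which encodes ferroportin, the iron exporter. Its level was 418 and 369 CPM in PARP1 WT and 407 and 391 CPM in PARP1CKO. In the PARP2 line it was 284 and 288 CPM in PARP2 WT compared with 252 and 306 CPM in PARP2CKO. WT and CKO libraries overlapped within each line, and all 4 libraries of the PARP2 line lay below all 4 of the PARP1 line. The log2 fold change was 0.02 ± 0.09 in PARP1CKO, with a 95% interval of -0.18 to 0.22, and -0.03 ± 0.09 in PARP2CKO, with an interval of -0.23 to 0.16. Neither passed edgeR's quasi-likelihood test, with adjusted p of 0.944 and 0.983.

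Heme breakdown was described by Hmox1 (ENSMUSG00000005413.8, chr8:75093621-75100589), which encodes heme oxygenase 1 and frees iron from heme. It was at 1241 and 1473 CPM in PARP1 WT and at 1421 and 1172 CPM in PARP1CKO, which overlapped. It was at 1754 and 1796 CPM in PARP2 WT compared with 2228 and 1949 CPM in PARP2CKO, which did not overlap. For Hmox1 the log2 fold change was -0.07 ± 0.11 in PARP1CKO and 0.23 ± 0.11 in PARP2CKO, with adjusted p of 0.846 and 0.954 by edgeR's quasi-likelihood test. The PARP1CKO value ran from -0.21 to 0.066 when 1 library was left out, and the PARP2CKO value was 0.14 without PARP2CKO replicate 1. Of the 10 genes, Hmox1 had the largest difference between the deletion effects, 0.30 with a 95% interval of -0.04 to 0.65 and an adjusted p of 0.685. It was 0.176 without PARP1 WT replicate 2 and 0.169 without PARP1CKO replicate 2, where the Slc11a1 difference of -0.170 was larger in size.

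The sensors of cell iron were described by Ireb2, Aco1 and the regulator Hfe. Ireb2 (ENSMUSG00000032293.8, chr9:54863789-54912530), which encodes iron regulatory protein 2, lay between 86.3 and 93.0 CPM in the 8 libraries, and all groups overlapped. Its log2 fold change was 0.01 in PARP1CKO (interval -0.10 to 0.13) and -0.03 in PARP2CKO (interval -0.14 to 0.09). Aco1 (ENSMUSG00000028405.9, chr4:40143081-40198338) encodes iron regulatory protein 1, which doubles as the cytosolic aconitase. It was at 96.1 and 95.1 CPM (PARP1 WT), 93.1 and 91.0 CPM (PARP1CKO), 104 and 103 CPM (PARP2 WT) and 109 and 101 CPM (PARP2CKO). The PARP1CKO libraries lay just below their WT libraries, the only such case among the 10 genes in a CKO comparison (20.2% of all genes in PARP1CKO and 18.8% in PARP2CKO). The log2 fold change of -0.05 ± 0.05 did not pass the test. All 4 libraries of the PARP2 line lay above all 4 of the PARP1 line, and the log2 difference of PARP2 WT from PARP1 WT was 0.11 ± 0.05 (adjusted p = 0.242 by edgeR's quasi-likelihood test). Hfe (ENSMUSG00000006611.15, chr13:23702034-23710854), which encodes a partner of the transferrin receptors, was at 23.0 and 22.0 CPM (PARP1 WT), 24.4 and 24.8 CPM (PARP1CKO), 21.7 and 22.4 CPM (PARP2 WT) and 24.3 and 22.1 CPM (PARP2CKO). The PARP1CKO libraries lay above their WT libraries and the groups of the PARP2 line overlapped. Its log2 fold changes of 0.13 ± 0.06 and 0.07 ± 0.06 did not pass the test, and the PARP2CKO value was 0.0013 without PARP2CKO replicate 1 and 0.14 without PARP2CKO replicate 2.

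Over all 10 genes, 0 passed edgeR's quasi-likelihood test in PARP1CKO, where 0.106% of all tested genes passed, and 0 passed in PARP2CKO, where 0.053% passed. At an unadjusted p under 0.05 the counts were 2 (Tfrc and Slc11a1; 11.3% of all genes) and 3 (Tfrc, Fth1 and Ftl1; 4.83% of all genes). DESeq2, the likelihood-ratio test and the unfiltered test each called 1 of the 10, Tfrc, in each comparison. Of the genes each tested, they called 0.754%, 1.11% and 0.576% in PARP1CKO and 0.205%, 0.296% and 0.148% in PARP2CKO. The excess of false calls on simulated tables, given above, is a limit on the calls of DESeq2 and the likelihood-ratio test. In PARP1CKO, 8 of the 10 log2 fold changes were above 0 (52.1% of all genes), and in PARP2CKO also 8 were (49.3%). Groups did not overlap, with CKO higher, for 6 of 10 genes in each comparison (21% and 18.4% of all genes). In both comparisons this held for Tfrc, Slc11a1, Slc11a2, Fth1 and Ftl1, and 4.3% of all genes had CKO higher without overlap in both. The 10 genes were chosen with earlier results of these data known. Their shares here and between the WT groups therefore describe the set and are no test of it. The median log2 fold change of the 10 was 0.09 in PARP1CKO and 0.09 in PARP2CKO, beside 0.01 and -0.00 over all genes. The test of the difference between the deletion effects called 0 of the 10 genes, where 0.0152% of all genes passed. None of the 10 had an unadjusted p under 0.05 there (7.69% of all genes). DESeq2 (0.362% of the genes it tested) and the likelihood-ratio test (0.546% of all genes) also called 0. Averaged over both deletions, the quasi-likelihood test called 0 of the 10 (0.106% of all genes), with 6 at an unadjusted p under 0.05 (9.17% of all genes). DESeq2 called 3 for that average, Tfrc, Fth1 and Ftl1 (0.455% of all genes). The likelihood-ratio test (0.659% of all genes) and the unfiltered test (0.405% of the genes it tested) each called 1, Tfrc.

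**Figure D3:**
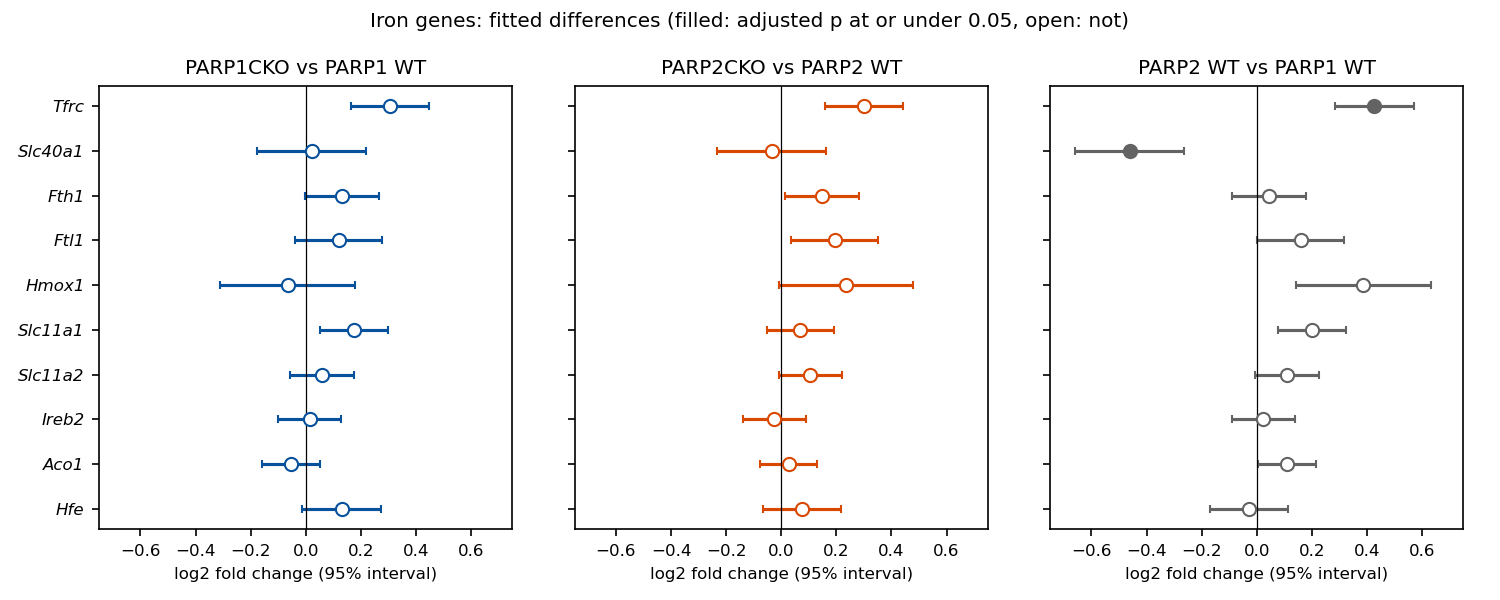
Fitted log2 fold change with its 95% interval for each of the 10 iron genes in both CKO comparisons and between the WT groups; filled points have an adjusted p at or under 0.05. Only Tfrc and Slc40a1 between the WT groups are filled, while the Tfrc intervals lie above 0 in all 3 panels.

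Between PARP2 WT and PARP1 WT, 2 of the 10 genes passed edgeR's quasi-likelihood test after Benjamini-Hochberg adjustment, where 3.16% of all genes passed. On simulated tables of PARP1CKO against PARP1 WT, the share of false calls of this test exceeded the nominal level. The comparison of the WT groups was not simulated. Tfrc was higher in PARP2 WT by 0.43 ± 0.06 on the log2 scale (adjusted p = 0.0103), or 34.5% with a 95% interval of 21.8% to 48.4%. Slc40a1 was lower, with a log2 fold change of -0.46 ± 0.09 (adjusted p = 0.0290), or -27.4% with an interval of -36.7% to -16.7%. Neither call held without each library in turn, while the log2 fold changes ran from 0.38 to 0.47 for Tfrc and from -0.55 to -0.37 for Slc40a1. Tfrc was not called without PARP1 WT replicate 1 (adjusted p = 0.0913) or without PARP2 WT replicate 1 (0.0686). Slc40a1 was not called without PARP1 WT replicate 1 (0.189), PARP2 WT replicate 1 (0.133) or PARP2 WT replicate 2 (0.133). Line, litter and any batch cannot be told apart here.

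Between the WT groups, 8 of the 10 log2 fold changes were above 0 and 2, those of Slc40a1 and Hfe, were below. The median of the 10 was 0.11, beside 0.00 over all genes. Hmox1 was higher in PARP2 WT by 0.39 ± 0.11 on the log2 scale (adjusted p = 0.100) and Slc11a1 by 0.20 ± 0.05 (adjusted p = 0.0919), and neither passed edgeR's quasi-likelihood test. At an unadjusted p under 0.05 there were 6 of the 10 genes (18.9% of all genes). The likelihood-ratio test, which called 6.9% of all genes, called both Hmox1 and Slc11a1 (adjusted p of 0.0141 and 0.0315). So did the unfiltered test, which called 4.97% of the genes it tested. DESeq2, which called 4.43% of those it tested, called Slc11a1 (adjusted p = 0.0160) and not Hmox1 (0.137). The quasi-likelihood test on only the 4 WT libraries, which called 3.06%, called Hmox1 (adjusted p = 0.0498) and not Slc11a1 (0.0533). Groups did not overlap, with PARP2 WT higher, for 6 of 10 genes (26.7% of all genes) and, with PARP2 WT lower, for 1 (25.2%). The ratio of Tfrc to Slc40a1 counts joined both called genes in 1 value per library. In the PARP1 line it was 0.908 and 1.04 for PARP1 WT and 1.1 and 1.2 for PARP1CKO. In the PARP2 line it was 1.87 and 1.73 for PARP2 WT and 2.66 and 1.95 for PARP2CKO. The 4 libraries of the PARP2 line stood above the 4 of the PARP1 line, which restates the levels of Tfrc and Slc40a1 given above and is no further test. The WT groups also differed in cell markers. The 6 B cell markers summed to 29.4 to 34.3 CPM in PARP1 WT and to 9.30 to 11.3 CPM in PARP2 WT, and all 6 passed the test as lower, with a median log2 fold change of -1.84. Of the tested erythroid markers, 2 of 7 passed (median -1.31; 1 of 6 passed with Hba-a1 and Hba-a2 entered once), of the macrophage markers 1 of 11 (median 0.21, all 11 above 0), of the neutrophil and precursor markers 3 of 11 (median 0.22), of the monocyte markers 1 of 5 (median 0.21) and of the immature myeloid label 1 of 5 (median 0.21), which was Lyz2. The sum of the cycling markers was lower in PARP2 WT (2258 to 2263 CPM) than in PARP1 WT (2338 to 2438 CPM) without overlap, with 1 of 10 above 0 (median -0.08) and 0 called. Their part in the iron genes' difference was not tested.

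The genes whose log2 CPM was most like that of Tfrc over the 8 libraries, by Pearson's r, were Ndufb6 (0.989), Akap10 (0.987), Dcxr (0.984), Nlrc3 (0.981) and Bscl2 (0.980). For Slc40a1 they were Ccdc149 (0.995), Slc1a2 (0.986), Srpk3 (0.985), Osbpl8 (0.984) and Gm527 (0.980). The libraries share their groups, so these values may follow the group means, which was not tested, and they are given as a description. Ccdc149, Slc1a2, Srpk3 and Gm527 lay at or below 1.57 CPM in all libraries.

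A wider list of 71 symbols of iron and heme handling, which includes the 10 genes, placed them among their pathway. Of these, 69 were in the table and 53 passed the filter. In each CKO comparison 0 of the 53 passed edgeR's quasi-likelihood test (0.106% of all genes in PARP1CKO and 0.053% in PARP2CKO). At an unadjusted p under 0.05 there were 8 of 53 in PARP1CKO (11.3% of all genes) and 6 of 53 in PARP2CKO (4.83% of all genes). DESeq2, the likelihood-ratio test and the unfiltered test each called 2 in PARP1CKO, Tfrc and Epas1 (0.754%, 1.11% and 0.576% of the genes each tested). They each called 1 in PARP2CKO, Tfrc (0.205%, 0.296% and 0.148%). Without the 10 genes, 23 of 43 log2 fold changes were above 0 in PARP1CKO (52.1% of all genes) and 24 of 43 in PARP2CKO (49.3% of all genes), with medians of 0.01 and 0.02. By role in PARP1CKO, 4 of 7 other uptake genes, 1 of 3 storage genes, 4 of 9 heme genes, 4 of 7 regulators, 10 of 16 genes of mitochondrial iron and heme synthesis and 0 of 1 export gene, Cp, were above 0. In PARP2CKO the same counts were 5 of 7, 2 of 3, 6 of 9, 3 of 7, 7 of 16 and 1 of 1.

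**Figure D4:**
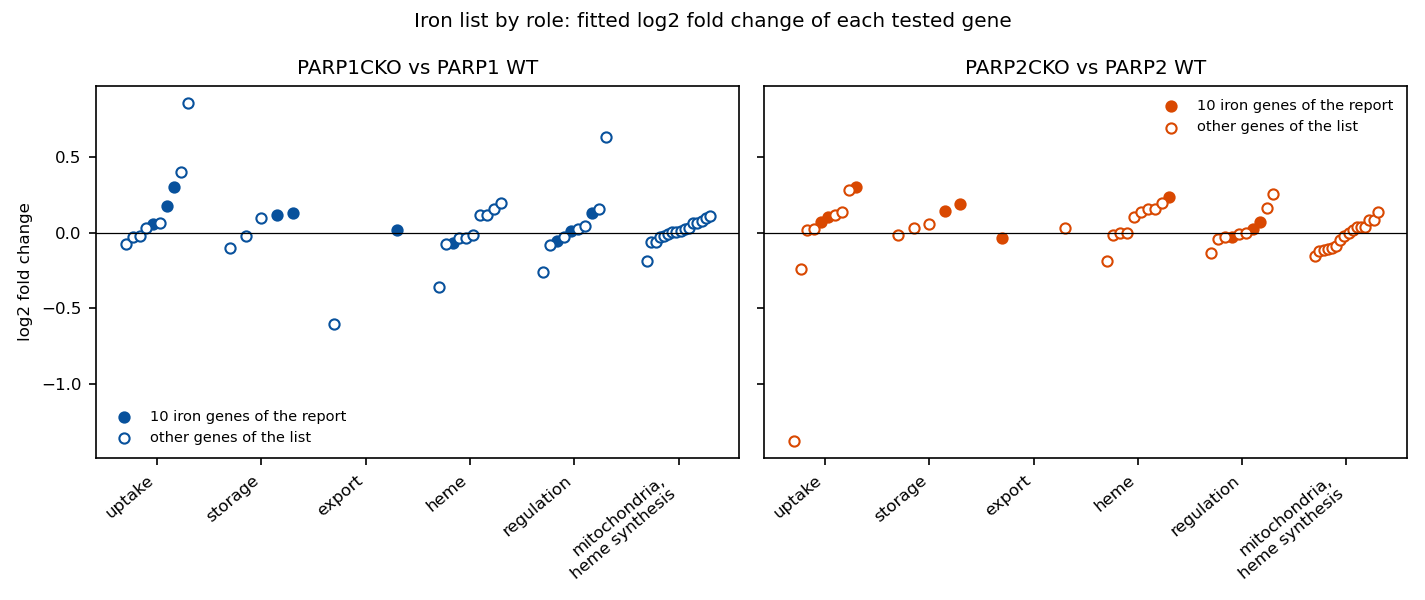
Fitted log2 fold change of the 53 tested genes of the iron list by role in PARP1CKO and in PARP2CKO; filled points are the 10 iron genes described here and open points the others. No point passed edgeR's quasi-likelihood test, and most points lie near 0.

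In PARP1CKO, the non-overlapping genes with the smallest unadjusted p outside the 10 were Epas1, Keap1, Blvrb and Cpox. Epas1, which encodes the hypoxia factor HIF-2α, was at 12.2 and 11.4 CPM in PARP1 WT and at 18.4 and 18.3 CPM in PARP1CKO. In the PARP2 line Epas1 was at 20.1 and 20.9 CPM in PARP2 WT compared with 26.0 and 19.9 CPM in PARP2CKO, which overlapped. Its log2 fold change in PARP1CKO was 0.64 ± 0.12, and its adjusted p was 0.135 by edgeR's quasi-likelihood test and 0.000426 by DESeq2. Keap1, the brake on the NRF2 stress response, differed by 0.16 and the biliverdin reductase gene Blvrb by 0.20 (0.13 without PARP1 WT replicate 1). Cpox, an enzyme of heme synthesis, differed by -0.19. None of these 3 passed, with adjusted p of 0.261, 0.265 and 0.289 by the quasi-likelihood test.

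In PARP2CKO, the corresponding genes were Blvra, Nfe2l2, Hp and Cpox. Blvra, the other biliverdin reductase gene, was at 98.2 and 117 CPM in PARP2 WT compared with 124 and 122 CPM in PARP2CKO. Its log2 fold change was 0.20, and it was 0.081 without PARP2 WT replicate 1 and 0.33 without PARP2 WT replicate 2. Nfe2l2, which encodes NRF2, differed by -0.13, the hemoglobin scavenger Hp by -0.19 (-0.12 without PARP2CKO replicate 2) and Cpox by -0.12. Their adjusted p were 0.888 for Blvra and 0.954 for the other 3 by edgeR's quasi-likelihood test.

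Between the WT groups, 5 of the 53 genes passed the test, where 3.16% of all genes passed. Besides Tfrc and Slc40a1 these were Blvra (0.49 higher in PARP2 WT on the log2 scale, adjusted p = 0.00928), Epas1 (0.80 higher, adjusted p = 0.00999) and Alas1 (0.34 higher, adjusted p = 0.0154), by edgeR's quasi-likelihood test. Alas1 encodes the first enzyme of heme synthesis outside red cells, and was at 115 and 128 CPM in PARP1 WT and at 156 and 152 CPM in PARP2 WT. Blvra was lower in both PARP1 WT libraries than in both PARP2 WT libraries. Blvra, Epas1 and Alas1 were not called without PARP1 WT replicate 1. Blvra was also not called without PARP1 WT replicate 2, Epas1 without PARP1 WT replicate 2 or PARP2 WT replicate 2, and Alas1 without PARP2 WT replicate 1 or PARP2 WT replicate 2. Leaving out each library, the log2 fold changes ran from 0.36 to 0.61 for Blvra, 0.74 to 0.84 for Epas1 and 0.26 to 0.41 for Alas1.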

How the data were processed

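The authors trimmed single-end reads with fastq-mcf, mapped them to mm10 with TopHat2 (version 2.0.12 in the submitters' processing notes), marked duplicates with Picard 1.127 and counted reads per gene with featureCounts. The deposited values are raw counts, 1 column per library, and 0 columns lay outside the 8 libraries. Annotation, strand setting, the counting of marked duplicates and of reads with several matches are not given in the sources used here.

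Counts were scaled by TMM and filtered with filterByExpr in edgeR 4.0.16 (R 4.3.3). The main test was edgeR's two-sided quasi-likelihood test, fitted to the 8 libraries together with 1 mean per group, Benjamini-Hochberg adjustment over 13197 genes and a threshold of 0.05. Contrasts were each CKO group against its WT group, the difference and the mean of those effects, and PARP2 WT against PARP1 WT. An exact permutation test of 2 against 2 libraries cannot go below 0.333 and was not used. TMM factors lay between 0.965 and 1.03. Each library counted as 1 replicate. The spread between replicates was above sampling noise alone in each group (chi-square per gene of 8.56 to 12.9), which is a description and not the basis of that choice. Alternatives were DESeq2 1.42.0, a likelihood-ratio test, other scalings and filters, fits on 4 libraries, a replicate block and leaving out each library. Simulated tables held changes in PARP1CKO only and were tested for PARP1CKO against PARP1 WT only. On them, the fitted fold changes were close to those put in. The share of false calls exceeded the nominal level for the quasi-likelihood test, for DESeq2 and, by the widest margin, for the likelihood-ratio test. The unfiltered test was not simulated.

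Named genes were the 10 members, Parp1, Parp2, every gene of the iron list that passed, in each CKO comparison the 4 other list genes with the smallest p whose groups do not overlap, and the 5 genes most correlated with each called member (log2 CPM, prior count 2). Outside this rule, marker genes were named to describe the cells, Lyz2, Eif2s3y, Ddx3y and Flvcr1 after their values were seen, and Steap4, Spic and Slc25a37 because their CKO libraries lay on opposite sides of WT in the 2 lines. Members, lists and the rule were chosen with earlier results of these data known. Of the erythroid markers, 1 is not reported here and was left out of their sum. Symbols of 4 listed genes were matched through RefSeq synonyms. Gene positions, transcript lengths and UTRs came from GENCODE M21 on GRCm38. Figures were drawn with matplotlib 3.10.9.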

Additional observations from a re-analysis of the deposited data

Results flagged for a closer look

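In the iron list, 3 genes had both CKO libraries on opposite sides of their WT libraries in the PARP1 and PARP2 lines, which is 5.66% of the 53 tested, beside 6.62% of all 13197 genes. The difference between the deletion effects (PARP2CKO effect minus PARP1CKO effect) was tested with edgeR's quasi-likelihood test, and none passed after adjustment. Steap4, a metalloreductase gene, had 12 and 25 counts in the PARP1 WT libraries, 30 and 42 in the PARP1CKO libraries, 7 and 12 in the PARP2 WT libraries, and 2 and 5 in the PARP2CKO libraries. Its difference was -2.24 on the log2 scale (adjusted p = 0.609), at counts too low for a firm value. Spic, which encodes a transcription factor of red pulp macrophages, was also low, at 27 to 73 counts per library, and its difference was 0.517 (adjusted p = 0.753). Slc25a37, which encodes the mitochondrial iron importer mitoferrin 1, was at 69.3 and 68.3 CPM in the PARP1 WT libraries, 71.0 and 74.4 in the PARP1CKO libraries, 68.7 and 71.6 in the PARP2 WT libraries, and 64.4 and 67.8 in the PARP2CKO libraries. Its difference was -0.165 (adjusted p = 0.613).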

How the results depend on the processing

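The count of calls moved with the test, with dropping the filter and with leaving out single libraries, and the cause was not tested. With DESeq2, the likelihood-ratio test and no filter on low counts, the calls in PARP1CKO were 1, 1 and 1 of the 10 iron genes (0 in the quasi-likelihood test), 2, 2 and 2 of the iron list (0) and 86, 146 and 101 of all genes (14). In PARP2CKO they were 1, 1 and 1 (0), 1, 1 and 1 (0), and 27, 39 and 26 (7). For the mean effect they were 3, 1 and 1 (0), 4, 2 and 2 (0), and 60, 87 and 71 (14), and for the difference between the effects 45, 72 and 61 of all genes (2). Between the WT groups, the likelihood-ratio test and no filter called 4 and 4 iron genes (2) and 910 and 872 genes (417), and the 3 settings called 8, 8 and 9 of the iron list (5).

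The replicate numbers did not pair the samples, since deviations of same-numbered libraries correlated at -0.13 in the PARP1 line and 0.15 in the PARP2 line. With the replicate block in the quasi-likelihood test, 1 of the 10 iron genes and 315 of all genes were called between the WT groups (2 and 417 without the block). Slc40a1 was no longer called, with an adjusted p of 0.0515. For the mean effect, 6 of all genes were called with the block. With crossed numbers in PARP1CKO, chosen after seeing the data, 0 iron genes and 18 genes in all were called in PARP1CKO.

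Leaving out each library gave between 1 and 33 calls in PARP1CKO, 6 and 19 in PARP2CKO, 1 and 16 for the difference, 3 and 25 for the mean effect, and 85 and 318 between the WT groups, with 85 without PARP1 WT replicate 1. Iron list calls ranged from 0 to 1 in PARP1CKO, 0 to 1 for the difference, 0 to 2 for the mean effect and 0 to 4 between the WT groups. The list gene then called in PARP1CKO, without PARP1CKO replicate 1, was the heme exporter gene Flvcr1, named here after its values were seen. Its log2 fold change was -0.95 in that fit and -0.36 ± 0.24 in the main test, where the groups overlapped and it was not called. Iron gene calls ranged from 0 to 1 for the mean effect and 0 to 2 between the WT groups. A lone library was then assumed to vary like the other groups.

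Of 670 alternative values for the 10 genes, 608 kept their direction and side of the threshold, 18 newly passed it, 6 no longer passed it, and 38 turned direction, all of them values that had not passed. The lowest count of these genes in a library was 889, and each estimate rests on 2 libraries per group. With DESeq2's size factors or DESeq2, the Tfrc difference between the effects was 0.00088 and 0.00091. Leaving out a library, the log2 fold change spanned 0 as follows. In PARP1CKO the range was -0.068 to 0.11 for Slc40a1, -0.21 to 0.066 for Hmox1 and -0.036 to 0.063 for Ireb2. In PARP2CKO it was -0.18 to 0.10 for Slc40a1, -0.070 to 0.019 for Ireb2 and -0.035 to 0.085 for Aco1. For the difference it was -0.10 to 0.082 for Tfrc, -0.20 to 0.075 for Slc40a1, -0.042 to 0.075 for Fth1, -0.0042 to 0.15 for Ftl1, -0.0080 to 0.11 for Slc11a2, -0.088 to 0.012 for Ireb2 and -0.13 to 0.012 for Hfe. For the mean effect it was -0.079 to 0.059 for Slc40a1, -0.030 to 0.019 for Ireb2 and -0.045 to 0.015 for Aco1, and between the WT groups -0.0062 to 0.053 for Ireb2 and -0.062 to 0.0029 for Hfe. With library size in place of TMM, the Fth1 difference was -0.0053 and Ireb2 between the WT groups was -0.015.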
